A study of Mus musculus with 9 samples.

Results

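Transcript levels of 7 genes, Sdc1, Igj, Mzb1, Fam46c, Slpi, Hid1 and Pon3, were examined across the B cell to plasma cell (PC) transition in mouse spleen. They are hallmark genes of PCs or genes of secreted or secretory-pathway proteins, and they were chosen by known PC markers and by the size of their rise in TPM from B cells to PCs in these libraries, from 30317 genes in the table that includes immunoglobulin (Ig) genes. All 7 were found in that table, and 6 of them, all but Igj, in the table from which 322 Ig genes had been left out. Because the PC levels chose the genes, levels in PCs are given as a description with no test, and only the change from naive to NP-specific B cells was tested. The rise that chose genes was measured from B cell libraries that this change also uses, so its test is not free of the choice.

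The cells came from B6.Blimp1+/GFP mice aged 12 weeks, in which 1 allele of Prdm1, the gene of the PC regulator Blimp1, reports its transcription as green fluorescent protein (GFP). All groups, naive cells included, were taken from mice injected intraperitoneally with 50 µg of NP-LPS, a nitrophenyl hapten coupled to bacterial lipopolysaccharide, and killed on day 4. Naive B cells were sorted as IgD high, B220+ and NP-. NP-specific B cells (NP B cells) were IgD-, NP+, B220+, GFP- and CD138-, and PCs were IgD-, NP+, GFP+ and CD138+. Cells with CD4, CD8α, F4/80 or Ter119 were gated out of all groups. Each of the 3 groups had 3 libraries, 9 in all, with the NP-binding cells said to come from 3 animals. CD138 is the protein product of Sdc1, so Sdc1 was part of the sort that separated NP B cells from PCs, whereas the gate for naive cells did not use it.

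PCs are the end stage of B cell differentiation and give over much of their transcription and endoplasmic reticulum (ER) to antibody. Igj encodes the J chain, the small protein that joins IgM into pentamers and IgA into dimers, and Mzb1 an ER protein that helps to fold and secrete IgM. Sdc1 encodes syndecan-1, a heparan sulfate proteoglycan of the cell surface. Fam46c, now named Tent5c, encodes a poly(A) polymerase that lengthens the tails of mRNAs for secreted proteins. Slpi encodes a secreted inhibitor of neutrophil serine proteases, Hid1 a Golgi protein of the secretory pathway and Pon3 a lactonase of the paraoxonase family. Igj is named Jchain in RefSeq.

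In the RefSeq annotation of GRCm38.p6, Sdc1 lies on chr12:8771396-8793716, Igj on chr5:88519809-88527897, Fam46c on chr3:100468057-100489192, Slpi on chr2:164354070-164356507, Hid1 on chr11:115347705-115367756, Pon3 on chr6:5216256-5256285 and Mzb1 on chr18:35647265-35650266. The build of the deposited tables is named in the submitters' processing notes as mm10, which is GRCm38.

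The libraries held 28958700 to 39341500 estimated reads. Ig genes took an implied 6.32 to 6.49% of each naive library, 9.64 to 11.6% of NP B cell libraries and 70.0 to 72.2% of PC libraries, so the table with Ig genes lowers the value of every other gene in PCs relative to the table without them. One library stood apart: PC replicate 3 held a summed level of 1946 TPM (a level per transcript length, with the listed genes summing to 936731 to 937784 in naive, 902902 to 912982 in NP B and 671550 to 699885 in PC libraries) for 10 hepatocyte markers, against 18.2 and 19.2 in the other PC libraries and 3.06 to 5.95 in the remaining 6. Summed neutrophil markers (8 genes) reached 48.1 TPM in NP B replicate 2, against 1.55 and 0.914 in replicates 1 and 3. Macrophage or monocyte markers (7 of 8 were in the table) summed to 47.6 to 62.1 TPM in NP B, 5.48 to 7.61 in naive and 13.0 to 36.6 in PC libraries, with Cd68 alone at 40.3 to 59.8 TPM in NP B and 3.63 to 3.79 in naive libraries. Of the other 6, in NP B libraries Lyz2 reached 4.94 TPM, Csf1r 1.38 and Mrc1 0.767 (in naive libraries at most 1.62, 0.563 and 0.215), while Cd14 reached 0.983 and C1qa 0.0355 and C1qb was at 0 (in naive libraries at most 0.911, 0.348 and 0.410). The part of such cells, or of any PCs left in the NP B sort, in the changes between naive and NP B cells was not tested. As a check of the labels, 10 B cell markers summed to 41763 to 45378 TPM in naive, 25512 to 26785 in NP B and 1979 to 2170 in PC libraries. Of 4 PC markers that are not among the 7 genes, Xbp1 was at 104 to 119, 128 to 152 and 1116 to 1269 TPM, Tnfrsf17 at 0.0580 to 0.479, 4.71 to 16.6 and 202 to 223, and Prdm1, whose reporter was part of the sort, at 1.84 to 3.03, 2.73 to 6.54 and 23.5 to 32.3. The other, Irf4, was at 21.4 to 26.7 TPM in naive, 6.29 to 12.6 in NP B and 26.6 to 37.2 in PC libraries. Naive and PC values thus overlapped in the table with Ig genes. In the table without them, Irf4 was at 22.8 to 28.5 TPM in naive, 7.12 to 14.0 in NP B and 88.8 to 133.8 in PC libraries. In bulk samples, fewer cells of a type and less RNA per cell cannot be told apart.

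Igj and Mzb1, the antibody assembly genes, gave the highest levels in NP B cells and PCs. Both were higher in NP B than in naive B cells. Igj was almost absent from naive B cells, at 1.61, 2.53 and 4.96 TPM, and reached 465, 372 and 273 TPM in NP B cells and 16469, 14195 and 16488 TPM in PCs. The 3 groups did not overlap, and the lowest NP B library exceeded the highest naive library 55.1-fold. From naive to NP B cells Igj rose by 6.84 ± 0.37 (SE, n = 3 per group) on the log2 scale (limma, adjusted p = 1.76e-06), the second largest rise of all 12324 genes tested. Ranked by TPM within each library, Igj lay at 9002 to 11387 in naive, 306 to 551 in NP B and 5 or 6 in PC libraries.

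The level of Igj relative to Ighm, the IgM heavy chain gene with which its product assembles, also differed. Per 100 TPM of Ighm, Igj stood at 0.0351, 0.0585 and 0.109 TPM in naive B cells, at 8.73, 6.63 and 5.72 in NP B cells and at 35.1, 27.97 and 36.3 in PCs. Ighm itself was at 4329 to 4579 TPM in naive, 4779 to 5608 in NP B and 45457 to 50753 in PC libraries. Between naive and NP B cells the ratio of group means was 122 for Igj, while the Ighm values of the 2 groups lay within 4329 to 5608 TPM.

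Mzb1 was already abundant in naive B cells, at 307, 343 and 381 TPM. It measured 674, 834 and 917 TPM in NP B cells, each above every naive library, and 4764, 4166 and 5311 TPM in PCs. The rise from naive to NP B cells was 1.27 ± 0.14 on the log2 scale (limma, adjusted p = 0.000112), smaller than that of Igj but with the smallest SE of the 7 genes. In the table without Ig genes, Mzb1 ranked 1 of all genes in each PC library, at 15973, 14985 and 17695 TPM. A read-through transcript model of Spata24 in GENCODE M21 overlaps Mzb1 on the same strand, so the 2 genes may share reads. Spata24 measured 8.58 to 9.39 TPM in naive, 13.2 to 17.5 in NP B and 1.30 to 2.59 in PC libraries, far below Mzb1 in every one.

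**Figure D1:**
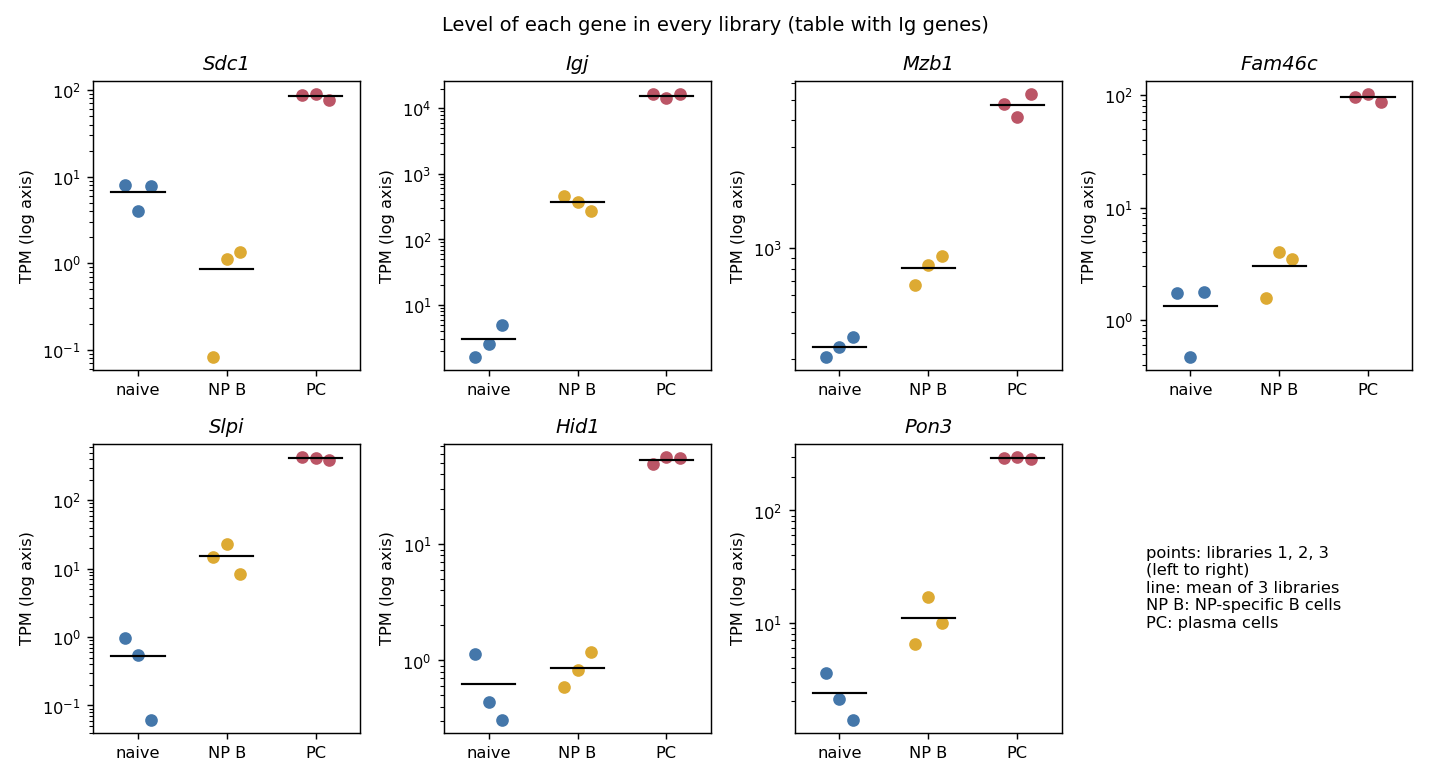
Level of each of the 7 genes in TPM (log axis, own scale per panel) in the 3 libraries of each group, with the mean as a line. Points of PCs lie above all others in every panel, Igj, Mzb1, Slpi and Pon3 lie higher in every NP B library than in any naive library, and Sdc1 lies lower, from 0.0822 to 1.33 TPM against 4.05 to 7.94.

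Slpi and Pon3, which encode a secreted protease inhibitor and a lactonase, rose as well in NP B cells. Slpi measured 0.962, 0.550 and 0.0618 TPM in naive B cells, 14.8, 22.7 and 8.46 in NP B cells and 432, 412 and 388 in PCs. Naive and NP B libraries did not overlap, and the rise was 3.99 ± 0.50 on the log2 scale (limma, adjusted p = 0.000207). The naive values rest on 14.3, 8.56 and 0.823 estimated reads, the last under the floor of 3, against 154 to 421 in NP B cells, so the size of the fold is imprecise. Slpi was highest in the NP B library with neutrophil markers. Without that library the rise was 3.66 (limma, adjusted p = 0.000158), and S100a8 was at 22.2 TPM in that library and at 0 in NP B replicates 1 and 3. The size of the rise depended on the scale: it was 5.29 on the deposited log2 values (limma, adjusted p = 0.000334) and 5.26 on estimated reads (limma, adjusted p = 0.00102).

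Pon3 measured 3.60, 2.11 and 1.37 TPM in naive B cells and 6.53, 16.9 and 9.87 in NP B cells, again without overlap. The rise was 2.04 ± 0.38 on the log2 scale (limma, adjusted p = 0.00194), and the values rest on 40.7 to 696 estimated reads. In PCs Pon3 was at 295, 300 and 289 TPM, a coefficient of variation of 1.81%, the smallest of the 7 genes. In PC replicate 3, with 289 TPM of Pon3, the hepatocyte marker Alb (albumin) was at 198 TPM, against 0.0495 and 0.0225 in replicates 1 and 2.

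**Figure D2:**
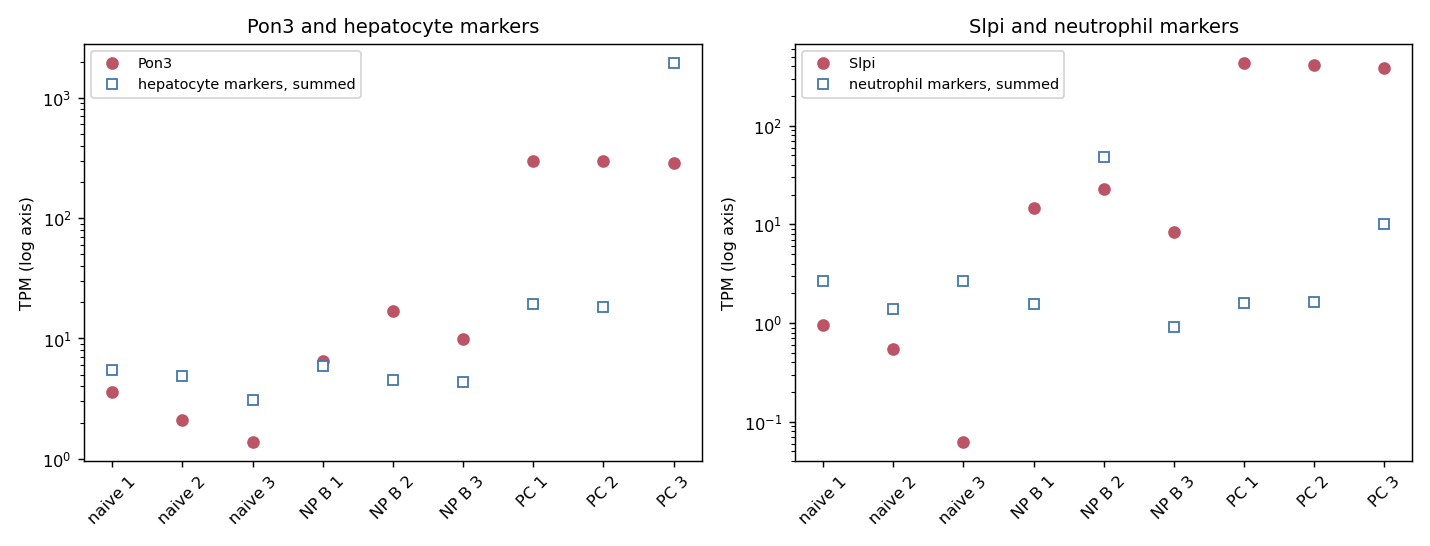
TPM (log axis) in each of the 9 libraries of Pon3 with the summed hepatocyte markers, and of Slpi with the summed neutrophil markers. Hepatocyte markers stand out in PC 3 (1946) where Pon3 is at 289, and neutrophil markers in NP B 2 (48.1) where Slpi is at 22.7.

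Fam46c and Hid1 were low in both B cell groups, and neither difference between these groups was called. Fam46c measured 1.74, 0.469 and 1.78 TPM in naive and 1.57, 4.00 and 3.52 TPM in NP B cells, and NP B replicate 1 lay among the naive values. The difference was 1.02 ± 0.39 on the log2 scale, which missed the threshold over all genes (limma, adjusted p = 0.0534, unadjusted p = 0.0277). It passed without NP B replicate 1, at 1.36 (limma, adjusted p = 0.0116), and fell to 0.61 (limma, adjusted p = 0.19) without naive replicate 2. In PCs Fam46c stood at 96.7, 101.8 and 87.1 TPM.

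Hid1 measured 1.14, 0.436 and 0.309 TPM in naive and 0.597, 0.828 and 1.18 TPM in NP B cells, with overlapping groups. The difference of 0.37 ± 0.32 on the log2 scale was not called (limma, adjusted p = 0.356), ranged from 0.17 without naive replicate 3 to 0.68 without naive replicate 1, and was not called without any of the 9 libraries. Hid1 reached 1 TPM in only 2 of these 6 libraries and passed the filter on low values through its PC levels, for which it was chosen. The values rest on 15.8 to 82.6 estimated reads. In PCs it measured 48.5, 56.3 and 55.3 TPM, the lowest PC level of the 7 genes.

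Sdc1 differed the other way between naive and NP B cells. It measured 7.94, 4.05 and 7.72 TPM in naive B cells and 0.0822, 1.13 and 1.33 TPM in NP B cells, so the lowest naive library was 3.03-fold above the highest NP B library. Sdc1 fell by 2.46 on the log2 scale (SE 0.42, limma, adjusted p = 0.00122), and NP B replicate 1 rests on 8.12 estimated reads. Without that library it fell by 1.94 (limma, adjusted p = 0.00277), while it fell by 3.53 on the deposited log2 values (limma, adjusted p = 0.0082) and fell by 3.57 on estimated reads (limma, adjusted p = 0.00394). Since the gate for NP B cells removed CD138+ cells and that for naive cells did not, the gate and a change in the cells cannot be told apart. In PCs, sorted as CD138+, Sdc1 was at 87.5, 89.6 and 76.4 TPM.

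Of the 7 genes, then, 4 were called higher in NP B cells than in naive B cells, where 8.67% of all tested genes were higher, and 1 was called lower, where 11.6% were. A call required an adjusted p under 0.05 and a fold change over 2. By the separation of libraries alone, 4 of 7 lay higher in every NP B library, which held for 22.2% of tested genes, and 1 of 7 lower, which held for 36.6%. The median change over all tested genes was -0.16 on the log2 scale. The calls of the 6 genes in both tables did not differ between the tables. Since the choice of genes used the same B cell libraries, these counts and shares are a description.

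**Figure D3:**
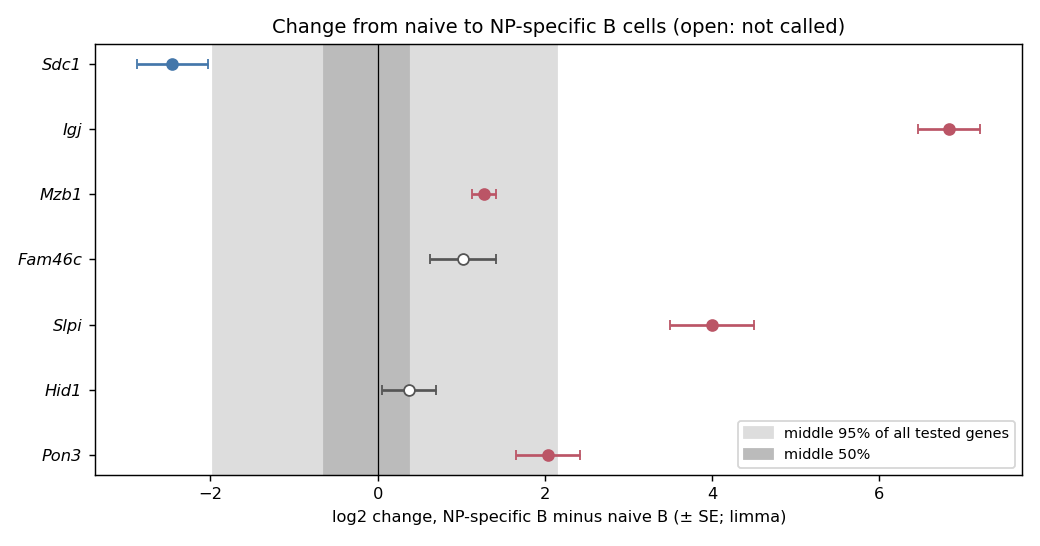
Log2 change ± SE of each gene from naive to NP B cells (limma, 3 libraries per group), over bands that hold the middle 50% (-0.64 to 0.37) and 95% (-1.97 to 2.14) of the 12324 tested genes. Igj and Slpi lie above and Sdc1 below the wider band, Pon3 just inside its upper edge, and the open points of Fam46c and Hid1 were not called.

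In PCs all 7 genes lay above every naive library and every NP B library, as the choice of genes fixes. The same held for 5.09% of tested genes against naive B cells and 3.71% against NP B cells. As differences of mean log2(TPM + 0.5) with no test, PCs exceeded naive B cells by 12.23 for Igj, 8.75 for Slpi, 6.77 for Pon3, 5.81 for Fam46c, 5.64 for Hid1, 3.78 for Mzb1 and 3.64 for Sdc1. Against NP B cells the order was another: 6.14 for Sdc1, 5.44 for Igj, 5.32 for Hid1, 4.83 for Fam46c, 4.80 for Slpi, 4.77 for Pon3 and 2.56 for Mzb1. Both sets share the PC libraries. By ratios of mean TPM, with no offset, Hid1 lay above Fam46c against naive B cells (85.1 and 71.6). By the same ratios Hid1 lay above Igj against NP B cells (61.4 and 42.5). With Ig genes left out, the difference between PCs and naive B cells was larger for each of the 6 genes it holds, for example 5.32 for Sdc1, 5.46 for Mzb1 and 10.49 for Slpi.

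The share of the PC level present in B cells differed between genes. As a percentage of the PC mean, NP B cells held 17.0% of Mzb1, 3.76% of Pon3, 3.73% of Slpi, 3.18% of Fam46c, 2.35% of Igj, 1.63% of Hid1 and 1.00% of Sdc1. Naive B cells held 7.77% of Sdc1 and 7.24% of Mzb1, and from 0.0193% (Igj) to 1.40% (Fam46c) of the others. These shares are from the table with Ig genes, which lowers the PC mean. With Ig genes left out, NP B cells held 5.56% of Mzb1, 1.22% of Pon3 and of Slpi and 1.03% of Fam46c. For Hid1 and Sdc1 the shares were then 0.529% and 0.325%. Naive B cells then held 2.42% of Sdc1 and 2.26% of Mzb1. The 3 NP B libraries did not order alike across genes: Igj was highest in replicate 1 (2.96% of the PC mean, against 1.74% in replicate 3), whereas Sdc1 was 0.0972% in replicate 1 and 1.58% in replicate 3. Replicate 1 was lowest for 5 of the 7 genes.

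**Figure D4:**
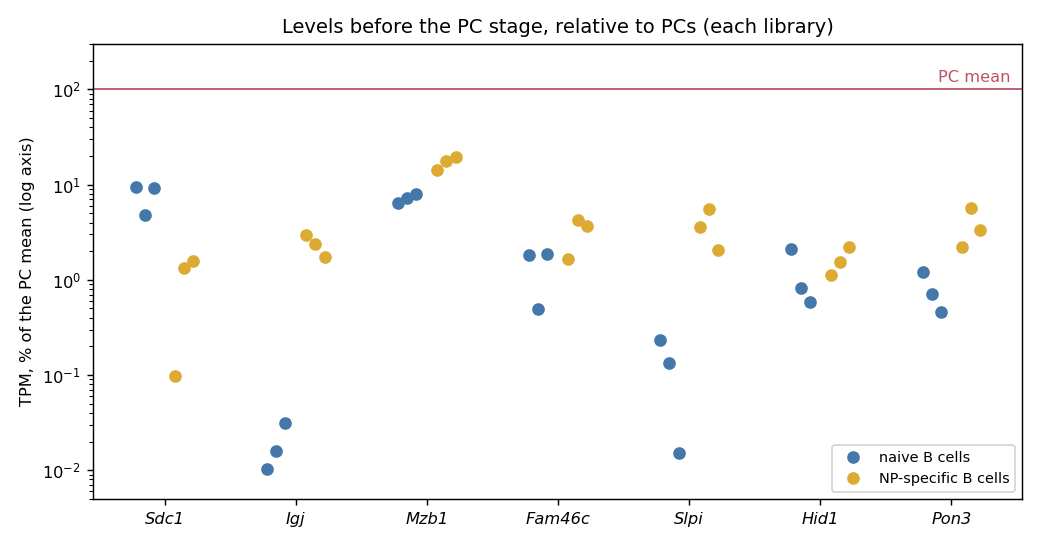
TPM in each naive and NP B library as a percentage of the PC mean of the same gene, with Ig genes in the table (log axis, horizontal line at 100%). NP B values range from 0.0972% (Sdc1, replicate 1) to 19.3% (Mzb1, replicate 3), and only for Sdc1 are all 3 below the naive values.

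The order of levels among the 7 genes, compared per transcript length in TPM, differed by group. In PCs it ran from Igj (15718 ± 1318, SD, n = 3) and Mzb1 (4747 ± 573) to Slpi (411 ± 22.4), Pon3 (295 ± 5.34), Fam46c (95.2 ± 7.45), Sdc1 (84.5 ± 7.10) and Hid1 (53.4 ± 4.25), and of neighbours only Fam46c and Sdc1 overlapped between libraries. In naive B cells Mzb1 (344 ± 37.1) led and Sdc1 (6.57 ± 2.19) came next, followed by Igj (3.03 ± 1.73), Pon3 (2.36 ± 1.13), Fam46c (1.33 ± 0.744), Hid1 (0.627 ± 0.445) and Slpi (0.525 ± 0.451), where every pair of neighbours from Sdc1 down overlapped. In NP B cells, Sdc1 (0.849 ± 0.672) was last, beside Hid1 (0.869 ± 0.295) with overlap, and Slpi (15.3 ± 7.15) overlapped Pon3 (11.1 ± 5.27). Together the 7 genes took 0.0346 to 0.0424% of listed TPM in naive, 0.129 to 0.137% in NP B and 2.76 to 3.38% in PC libraries.

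Sequence upstream of the genes was searched for motifs known from PC biology. RefSeq promoter windows (GRCm38.p6, 250 bases before to 50 after the start) were matched for 5 of the 7 genes: Sdc1, Igj, Fam46c, Slpi and Pon3. The 250 upstream bases are printed for 3 of them, 5′ to 3′ on the gene's strand: Igj (chr5:88527898-88528147, minus strand) and Slpi (chr2:164356508-164356757, minus strand), which rose most in NP B cells, and Sdc1 (chr12:8771146-8771395, plus strand), which fell. Capitals mark matches on either strand to ACGTG (the core of the site bound by XBP1), CCAAT and CCACG (the ends of the ER stress element) and CAGGTG (an E-box).
Igj: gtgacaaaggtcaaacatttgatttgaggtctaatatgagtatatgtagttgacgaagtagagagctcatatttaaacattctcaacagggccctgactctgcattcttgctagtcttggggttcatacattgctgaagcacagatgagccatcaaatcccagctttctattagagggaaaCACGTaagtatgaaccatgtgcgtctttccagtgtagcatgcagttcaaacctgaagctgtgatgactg
Slpi: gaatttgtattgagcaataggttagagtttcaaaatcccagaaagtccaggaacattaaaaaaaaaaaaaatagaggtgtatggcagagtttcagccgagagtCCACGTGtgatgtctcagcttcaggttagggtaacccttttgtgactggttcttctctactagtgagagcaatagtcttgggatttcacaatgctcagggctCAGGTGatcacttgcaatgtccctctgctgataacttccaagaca
Sdc1: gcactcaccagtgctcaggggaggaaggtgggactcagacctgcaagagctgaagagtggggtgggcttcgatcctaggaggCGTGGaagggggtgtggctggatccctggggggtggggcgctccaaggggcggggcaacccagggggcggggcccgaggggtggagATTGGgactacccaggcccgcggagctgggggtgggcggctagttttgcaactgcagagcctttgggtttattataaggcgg

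ACGTG was found in 2 of the 5 windows, those of Igj (first base at position -69 from the start) and Slpi (positions -146 and -145, 1 match on each strand), against 19.6% of all 32851 promoter windows. The Slpi match lies within CCACGTG and so overlaps a CCACG match at -147. CCACG was in 2 of 5 windows (Slpi and Sdc1) against 32.8% of all, CCAAT in 2 of 5 (Sdc1 and Fam46c) against 37.4%, and CAGGTG in 2 of 5 (Igj and Slpi) against 20.2%. The CAGGTG match of Igj, at position 6 after the start, and 1 of the 2 of Slpi, at 22, lie outside the upstream bases printed. The octamer ATTTGCAT, AAGTGAAA (a Blimp1-type site) and GGAANNGAA (an ETS-IRF site) were in none of the 5, against 1.74%, 1.60% and 8.24% of all windows, and Pon3 held none of the 7 motifs. A match is a description of the letters in the window, not of binding.

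The genes whose levels ran most like each member over the 9 libraries were found by Pearson's r of log2(TPM + 1) among 6450 genes with a mean TPM of at least 10, as a description. All members differ between PCs and the other groups by choice, and 17 (Sdc1) to 81 (Fam46c) of these genes passed 0.95. Sdc1 was nearest to Gpr155 (r = 0.995), which averaged 15.2 TPM in naive, 8.70 in NP B and 37.5 in PC libraries and so also dipped between. Igj was nearest to H1f0 (r = 0.991), Ostc and Eaf2, and Eaf2 averaged 7.75, 137 and 588 TPM in the same order. For Mzb1 the nearest were Pdia4 (r = 0.997), Wbp5 and Ppapdc1b, for Fam46c Dnajc3 (r = 0.998), Chid1 and Ddost, and for Hid1 Edem2 (r = 0.997), Txndc5 and Ssr4. Slpi was nearest to Rcbtb2 (r = 0.998), Tnfrsf17 and Cnpy2, and Pon3 to P4hb (r = 0.994), Sec24d and Entpd1. Armcx3 and Nucb1 followed Gpr155 for Sdc1.

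Genes related to the members were described from lists, in the table without Ig genes, where 12892 genes were tested. The lists were chosen with earlier results of these data known. Their counts and p-values, in PCs above all, thus describe these libraries and test no list. There, 8.13% of genes were called higher and 10.4% lower in NP B than in naive B cells, 11.4% and 26.3% in PCs against naive cells, and 9.93% and 22.3% in PCs against NP B cells. The medians of all tested genes were -0.16, -0.47 and -0.30 on the log2 scale. Log2 changes below are from limma with their SE, and PC comparisons share the PC libraries. For counts at an unadjusted p under 0.05 the share over all genes was not counted, so they have no background beside them. Scaling by median-of-ratios factors moved the 3 medians to -0.05, 0.02 and 0.08.

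None of the other syndecans was called higher than in naive B cells in PCs. Sdc4, the most abundant in naive B cells at 103, 111 and 107 TPM, measured 51.9, 27.5 and 34.1 in NP B cells and 19.5, 23.1 and 26.2 in PCs, so that it fell by 1.54 ± 0.18 (adjusted p = 0.000105) from naive to NP B cells and fell by 2.21 ± 0.20 (adjusted p = 3.52e-06) from naive B cells to PCs. Sdc2 and Sdc3 reached at most 2.04 and 2.78 TPM in any library. Of 21 tested genes for syndecans and heparan sulfate synthesis, other than Sdc1, 1 was higher and 4 lower in NP B than in naive B cells (median -0.36), and 3 were higher and 9 lower in PCs against naive cells (median -0.70). Shares over all tested genes were 8.13% higher and 10.4% lower in NP B cells, and 11.4% and 26.3% in PCs, against naive cells. Hpse, the enzyme that cuts heparan sulfate, rose in NP B cells by 1.45 ± 0.16 (limma, adjusted p = 6.81e-05). It was lower in PCs than in NP B cells by 2.21 ± 0.18 (limma, adjusted p = 2e-06). Xylt1, which starts the sugar chain, fell by 1.42 ± 0.32 (adjusted p = 0.00491) and Ndst2, a sulfotransferase, by 1.07 ± 0.22 (adjusted p = 0.00277, under 2-fold with median-of-ratios scaling and, at -0.87, without NP B replicate 3) in NP B cells. In PCs against naive B cells, Xylt1 and the sulfotransferase Hs3st1 fell by 2.56 ± 0.38 (adjusted p = 0.000153) and 2.28 ± 0.19 (adjusted p = 1.82e-06), and Hs3st3b1 and Extl2 rose by 1.73 ± 0.29 (adjusted p = 0.00035) and 1.48 ± 0.27 (adjusted p = 0.000728). Against NP B cells, Hs3st1 fell by 2.62 ± 0.19 (adjusted p = 6.91e-07), and Hs3st3b1 and the chain polymerase Ext1 rose by 1.73 ± 0.29 (adjusted p = 0.000402) and 1.60 ± 0.42 (adjusted p = 0.00797). Without NP B replicate 3 the rise of Ext1 was 0.98 (adjusted p = 0.017), under 2-fold. All these rises in PCs were under 2-fold in the table with Ig genes. Hs3st3b1 passed the filter on low values through its PC levels.

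Partners of Igj and Mzb1 in IgM assembly, a list chosen with earlier results of these data known, were called mostly in PCs. Of 13 tested genes, 1 was higher and 1 lower in NP B than in naive B cells (5 and 2 at an unadjusted p under 0.05, median 0.26), whereas 10 were higher and 1 lower in PCs against naive cells (median 3.18) and in PCs against NP B cells (median 2.28). Shares over all tested genes were 8.13% higher and 10.4% lower in NP B cells, and 11.4% and 26.3% in PCs, against naive cells. Against NP B cells they were 9.93% and 22.3% in PCs. Erp44, which holds back unfinished IgM in the early secretory pathway, rose in NP B cells by 1.16 ± 0.12 (adjusted p = 3.76e-05). Hsp90b1, the ER chaperone GRP94, and Lman1, a cargo receptor, rose most in PCs, by 5.33 ± 0.11 (adjusted p = 1.02e-10) and 5.02 ± 0.12 (adjusted p = 1.82e-10) against naive B cells. Fcamr, a receptor for IgM and IgA, averaged 3.58 TPM in naive, 1.06 in NP B and 0.0327 in PC libraries, and fell by 1.40 ± 0.27 (adjusted p = 0.00214) from naive to NP B cells. Against NP B cells, Hsp90b1 and Lman1 again rose most, by 4.48 ± 0.11 (adjusted p = 2.88e-10) and 4.42 ± 0.11 (adjusted p = 3.52e-10).

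Within the family of Fam46c, the other expressed member went down while Fam46c went up in PCs. Fam46a measured 9.30, 8.82 and 9.23 TPM in naive, 2.74, 3.45 and 5.80 in NP B and 1.13, 0.691 and 0.662 in PC libraries, and it fell by 1.16 ± 0.24 (adjusted p = 0.0033) from naive to NP B cells and fell by 1.72 ± 0.33 (adjusted p = 0.00122) from there to PCs. Without NP B replicate 1 the first of these was -0.95 (adjusted p = 0.0125), under 2-fold. Fam46b and Fam46d did not exceed 0.365 TPM in any library. Against naive cells, 8.13% of all tested genes were higher and 10.4% lower in NP B cells, and 11.4% and 26.3% in PCs. Of 14 tested polymerases and partners, 0 were higher and 3 lower in NP B than in naive B cells by limma (3 and 5 at an unadjusted p under 0.05, median -0.23), and 2 were higher and 5 lower in PCs against naive cells (median -0.62). The higher genes were Fndc3b and Fndc3a, ER membrane proteins known to bind FAM46C, which rose by 3.92 ± 0.26 (adjusted p = 3.82e-07) and 2.90 ± 0.27 (adjusted p = 5.2e-06). Fndc3b was at 0.313 to 0.894 TPM in naive and NP B libraries and passed the filter on low values through its PC levels. Fndc3a was lower in NP B than in naive B cells by 1.05 ± 0.36 (limma, adjusted p = 0.036). This call was lost with median-of-ratios scaling and without NP B replicate 3, where the difference was -0.49 (limma, adjusted p = 0.0631). The call was also lost without any 1 of the naive libraries (limma, adjusted p from 0.0662 to 0.0946). The poly(A) polymerase Papolg fell in NP B cells by 1.34 ± 0.15 (adjusted p = 7.21e-05). From NP B cells to PCs, Fndc3b and Fndc3a rose by 4.30 ± 0.28 (adjusted p = 3.86e-07) and 3.95 ± 0.32 (adjusted p = 1.8e-06). Zcchc11, a uridylating enzyme, fell in PCs by 2.33 ± 0.20 (adjusted p = 2.01e-06) against naive B cells and by 2.25 ± 0.20 (adjusted p = 3.46e-06) against NP B cells.

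Among 15 genes that shorten poly(A) tails, the opposing activity, 1 was higher and 1 lower in NP B than in naive B cells (median -0.27), and 0 were higher and 4 lower in PCs against naive cells by limma (1 and 10 at an unadjusted p under 0.05, median -0.61). Shares over all tested genes were 8.13% higher and 10.4% lower in NP B cells, and 11.4% and 26.3% in PCs, against naive cells. The 2 called in NP B cells were Pan3, a deadenylase subunit, at 1.38 ± 0.37 (adjusted p = 0.0121) but at 0.89, under 2-fold, without NP B replicate 1, and Tob2, at -1.18 ± 0.15 (adjusted p = 0.000141). Btg1, an adaptor of the CCR4-NOT deadenylase, averaged 274 TPM in naive B cells, 192 in NP B cells and 2.17 in PCs, and fell by 6.69 ± 0.36 (adjusted p = 6.37e-08) against naive B cells. Pan3, too, fell by 2.53 ± 0.42 (adjusted p = 0.000428) from NP B cells to PCs. Btg2, a paralogue of Btg1, averaged 254, 134 and 291 TPM and differed by 1.11 ± 0.11 (adjusted p = 9.9e-06) between PCs and NP B cells, but by -0.09 in the table with Ig genes.

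Other protease inhibitors on the list were counted beside all tested genes, of which 8.13% were higher and 10.4% lower in NP B cells. Of 7 tested, 0 were higher and 3 lower in NP B than in naive B cells by limma (1 and 4 at an unadjusted p under 0.05, median -0.86): Wfdc17 at -3.04 ± 0.83 (adjusted p = 0.0138), Wfdc18 at -2.09 ± 0.59 (adjusted p = 0.0157) and Spint2 at -1.16 ± 0.16 (adjusted p = 0.000294). Wfdc18 lost its call without naive replicate 1, NP B replicate 1 or NP B replicate 3 (adjusted p from 0.0529 to 0.0577). In PCs against naive B cells Spint2, a membrane inhibitor of serine proteases, rose by 1.97 ± 0.13 (adjusted p = 3.2e-07), under 2-fold in the table with Ig genes, and Cst3, a cysteine protease inhibitor, by 1.04 ± 0.08 (adjusted p = 8.26e-07), which was -0.18 in that table and just under 2-fold without naive replicate 3. Against NP B cells, Spint2 rose by 3.13 ± 0.15 (adjusted p = 3.24e-08) and Wfdc18 by 1.94 ± 0.59 (adjusted p = 0.0167). Wfdc18 measured 1.47, 0.466 and 4.06 TPM in PCs, the highest in the library with hepatocyte markers, without which its rise was 1.37 (adjusted p = 0.0383), and its call was lost without NP B replicate 1 or 3 (adjusted p = 0.0581 and 0.0527). Wfdc17 measured 58.5 to 63.0 TPM in naive B cells and 1.39, 0.509 and 62.4 TPM in PCs, Wfdc21 0, 0.260 and 321 TPM and Wfdc2 0, 0 and 4.21 TPM in PCs, so among PC libraries all 3 were highest in the one with hepatocyte markers. Wfdc17 fell by 3.63 ± 0.91 (adjusted p = 0.00545) in PCs against naive B cells, and fell by 5.47 (adjusted p = 4.06e-07) without that library, while it fell by 2.94 without PC replicate 1 and fell by 2.48 without PC replicate 2. What part the hepatocyte-marker library's other cells have in these values was not tested. Slpi in that library was the lowest of the 3. The 6 neutrophil and mast cell proteases on the list of SLPI targets did not pass the filter, and their highest value in any library was 0.852 TPM.

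For Hid1, genes of Golgi and dense core granule traffic were counted. Of 17 tested, 0 were called in NP B cells by limma (3 higher and 6 lower at an unadjusted p under 0.05, median -0.15), and 3 were higher and 2 lower in PCs against naive cells (median 0.09). Over all tested genes, 8.13% were higher and 10.4% lower in NP B cells, and 11.4% and 26.3% in PCs, both against naive cells. Ccdc186, which works with HID1 in granule maturation, and the Golgi GTPase Arl1 rose in PCs by 1.203 ± 0.18 (adjusted p = 0.000178) and 1.24 ± 0.11 (adjusted p = 2.78e-06), but stood at 0.04 and 0.03 in the table with Ig genes. Compared with NP B cells, Golga1 and Ccdc186 rose by 1.51 ± 0.19 (adjusted p = 5.59e-05) and 1.46 ± 0.19 (adjusted p = 6.21e-05), and these were under 2-fold in the table with Ig genes. Against naive B cells, Gcc1 and Vps51 fell in PCs by 1.07 ± 0.18 (adjusted p = 0.000436) and 1.01 ± 0.13 (adjusted p = 6.09e-05), both under 2-fold with median-of-ratios scaling, and Vps51 also without naive replicate 1 or PC replicate 1. Dym, another Golgi protein, measured 24.96 to 25.5 TPM in naive, 17.9 to 18.2 in NP B and 27.9 to 30.1 in PC libraries.

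Pon3 was the paraoxonase with the largest range. Pon2 averaged 32.4 ± 2.94 TPM in naive, 53.6 ± 8.85 in NP B and 136 ± 11.2 in PC libraries, a rise of 2.05 ± 0.14 (adjusted p = 3.63e-07) from naive B cells to PCs that was 0.84, under 2-fold, in the table with Ig genes. Pon1, a serum paraoxonase made in liver, measured 2.23, 1.83 and 11.7 TPM in PCs, highest in the library with hepatocyte markers. Its difference from naive B cells was 1.99 ± 0.66 (adjusted p = 0.0227), and 1.24 (adjusted p = 0.00788) without that library. The call was lost without any 1 of the naive libraries (adjusted p from 0.0517 to 0.0685), while against NP B cells, where Pon1 was at 0 to 0.0618 TPM, it was called higher as well. Pon1 passed the filter on low values through its PC levels. Of 22 tested genes of redox defence, 8 were higher and 0 lower in NP B than in naive B cells by limma (12 and 0 at an unadjusted p under 0.05, median 0.56), and 10 were higher and 1 lower in PCs against naive cells (median 0.85). Shares over all tested genes were 8.13% higher and 10.4% lower in NP B cells, and 11.4% and 26.3% in PCs, against naive cells. In NP B cells Gclm, a subunit of the enzyme that starts glutathione synthesis, rose by 2.67 ± 0.65 (adjusted p = 0.00761) and by 3.29 without NP B replicate 2, Gpx7, an ER peroxidase, by 2.45 ± 0.37 (adjusted p = 0.000467), Sod1 by 1.80 ± 0.31 (adjusted p = 0.00113) and Hmox1 by 2.05 ± 0.67 (adjusted p = 0.0303). Hmox1 lost its call in 5 of the 6 fits that left out a naive or NP B library, all but NP B replicate 1, without which it rose by 2.79. In PCs the metal-binding Mt1 and the secreted peroxidase Gpx3 rose by 6.85 ± 0.95 (adjusted p = 9.76e-05) and 5.26 ± 0.31 (adjusted p = 1.38e-07), Mt1 by 6.25 without PC replicate 3. Catalase (Cat) fell by 1.37 ± 0.21 (adjusted p = 0.000228), under 2-fold with median-of-ratios scaling. From NP B cells to PCs, Mt1 and Gpx3 rose by 7.72 ± 1.13 (adjusted p = 0.000171) and 6.09 ± 0.37 (adjusted p = 1.95e-07), Mt1 by 7.13 without PC replicate 3 and by 7.12 without NP B replicate 3, and Gclm and Cat fell by 2.41 ± 0.62 (adjusted p = 0.00688) and 1.65 ± 0.21 (adjusted p = 6.13e-05). Without NP B replicate 2, Gclm fell by 3.02. Gpx3 and Hmox1, like Pon1, passed the filter on low values through their PC levels.

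The list of other PC genes was picked, with these data known, for expression in PCs, and it holds Prdm1, whose reporter was part of the sort, so its PC levels are a description with no test. Of its 28 tested genes, 7 were higher and 4 lower in NP B than in naive B cells (median 0.41). Tnfrsf17, the receptor BCMA, rose in NP B cells by 3.68 ± 0.64 (adjusted p = 0.00118), and the ER-associated degradation gene Derl3 by 2.15 ± 0.16 (adjusted p = 5.34e-06). Ckap4 and Ly6k rose there by 1.91 ± 0.49 (adjusted p = 0.00995) and 1.77 ± 0.26 (adjusted p = 0.000362). The 4 lower genes, named after their values were seen, were Epcam at -1.60 ± 0.34 (adjusted p = 0.00376), Irf4, a transcription factor that PCs need, at -1.20 ± 0.27 (adjusted p = 0.00555), Cxcr4 at -1.19 ± 0.23 (adjusted p = 0.00228) and Aldh1l2 at -1.07 ± 0.26 (adjusted p = 0.00771). Irf4 was under 2-fold without NP B replicate 1 (-0.92), Cxcr4 without NP B replicate 2 (-0.96) and Aldh1l2 without naive replicate 1 or NP B replicate 1 or 3 (-0.99 to -0.93) and with median-of-ratios scaling. The median log2 difference of the list was 3.95 for PCs against naive cells and 3.45 against NP B cells. Against naive B cells the difference was 9.96 for Tnfrsf17 and 6.85 for Derl3, and against NP B cells it was 6.79 for Cd28, a costimulatory receptor, and 6.28 for Tnfrsf17.

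**Figure D5:**
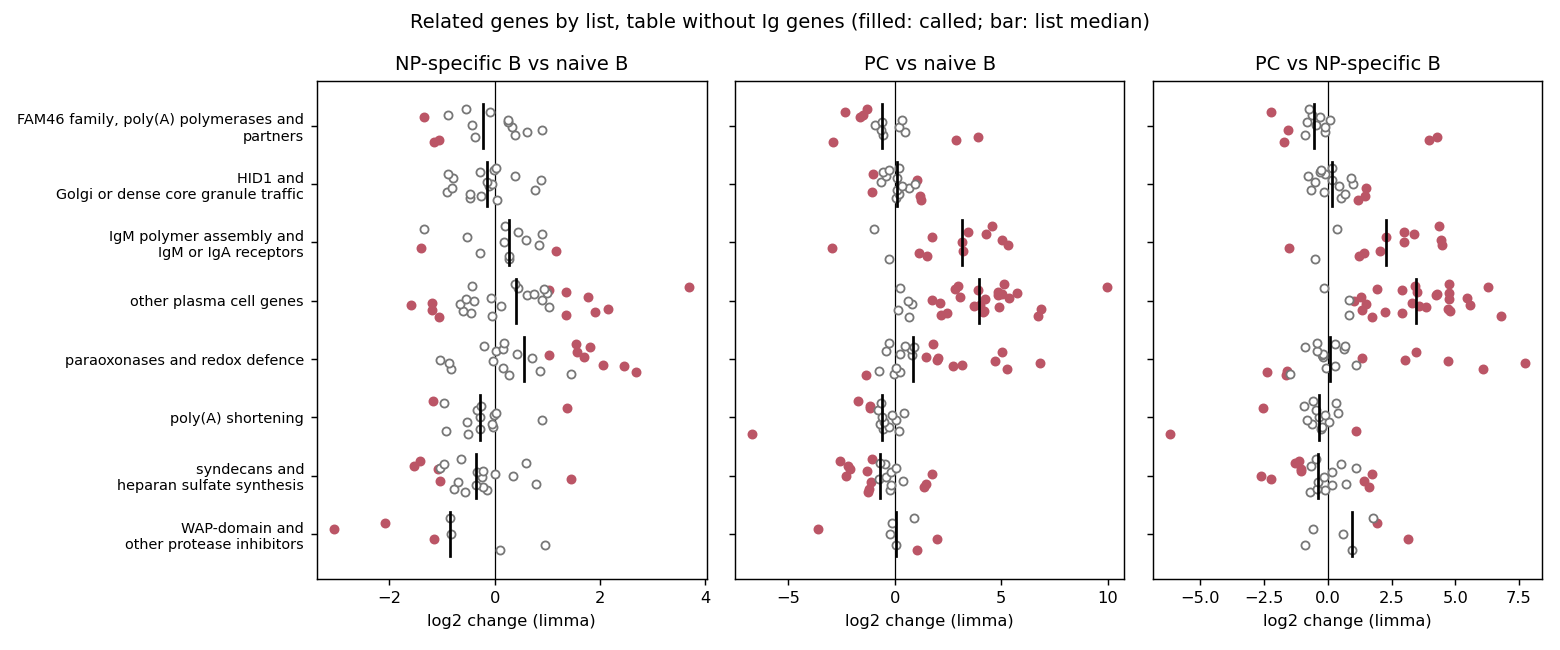
Log2 change (limma, table without Ig genes) of each tested gene on 8 lists in the 3 comparisons, filled where called, with the list median as a bar. In the PC comparisons, filled points of the other PC genes follow from how that list was picked and are no test. Medians of the IgM assembly list (3.18) and of other PC genes (3.95) are the highest in PCs against naive B cells, the latter a list picked for expression in PCs, and the remaining lists centre between -0.70 and 0.85.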

How the data were processed

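RNA-seq was analysed from 9 libraries of sorted splenic cells (3 groups of 3). Per the study's methods and the labels, cDNA was made with a template-switching kit and tagmented, and the authors pseudoaligned reads with kallisto. The submitters' processing notes name kallisto, limma and mm10, and the transcript annotation is not given in the sources used here. The TPM values deposited by the authors are levels per transcript length, for 30317 genes and, without 322 Ig genes, for 29995. The listed values of the former summed to 671550 to 937784 per library, lowest in PCs, and voom rescaled each library by its sum. The log2 values deposited by the authors were made with voom, and the estimated reads were recovered from the value shared by genes at 0 (an offset of 0.5 counts). The floor of 3 reads covers counting error only.

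TPM values were passed to voom and limma 3.58.1 (R 4.3.3) the tools that the study's methods name, with 3 group means over 9 libraries and no block, a design those methods do not spell out. Genes reaching 1 TPM or more in 3 or more libraries entered the test, and p-values were adjusted by Benjamini-Hochberg over all of them. Of the genes named from lists, Fndc3b, Hs3st3b1, Pon1, Gpx3, Hmox1 and Cd28 passed this filter through their PC levels. They reached 1 TPM in fewer than 3 of the naive and NP B libraries. A change was called at an adjusted p under 0.05 and over 2-fold. Voom works on log2(TPM + 0.5), which understates the change of low genes. The fit was tested on simulated data. The table with Ig genes was used for the 7 genes and the table without them for the lists.

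All members are named with their values. From each list, genes called in NP-specific B against naive B cells were named (up to 4 by size), as were the 2 largest called rises and falls in PCs and close family members whatever their values. The members and lists were chosen with earlier results of these data known. The sources do not say whether same-numbered libraries came from 1 mouse, nor which libraries ran on which of the sequencers named, so p-values measure the spread between these libraries, which may be technical in part. Motifs were searched in RefSeq promoter windows with Python 3.11.15.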

Additional observations from a re-analysis of the deposited data

How the results depend on the processing

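Each test of the 7 genes was repeated under 20 or 21 alternatives (the other table, 3 other scalings, 2 other filters, 2 other offsets, the authors' log2 values, estimated reads, the 6 libraries compared alone, the replicate block and each library left out). The 2 fits with other offsets also used neither the voom weights nor the rescaling of each library by its sum. The calls of Igj, Mzb1, Slpi, Pon3 and Sdc1 held in all of them, Hid1 was called in 0, and no direction turned, but sizes moved: Slpi ranged from 3.37 to 5.29 and Sdc1 from -3.57 to -1.88. Fam46c was called in 4 of 21: with median-of-ratios factors (1.12), quantile normalization (1.196), the deposited log2 values (1.40) and, among the fits that left out a library (0.61 to 1.36), without NP B replicate 1. Both NP-binding populations were said to come from 3 animals, but the sources do not say that libraries of the same number share a mouse. All 9 same-numbered pairs had a positive correlation of deviations (0.014 to 0.117, 1 of them over 0.1), and 16 of 18 best partners shared the number. This is a hint from the data of pairing by number, which the sources do not state. With the replicate block, Fam46c stood at 1.01 and Sdc1 at -2.41, no call of the 7 genes changed, and the count of called genes went from 1068 higher and 1426 lower to 1094 and 1412.

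For the lists, 141 of 175 called gene-comparison pairs kept their call in the table with Ig genes, 28 lost it and 6 turned direction (Cst3, Ero1lb and Rab30 against naive B cells, Arl1, Btg2 and Itga4 against NP B cells). Of 177 pairs, 157 kept it with median-of-ratios factors and 175 with the replicate block, and leaving out a library lost 4 to 12. The share of calls that were higher moved from 43.9, 30.2 and 30.8% (NP B against naive B cells, PCs against naive B cells, PCs against NP B cells) to 55.2, 56.4 and 53.1% with median-of-ratios factors and to 42.8, 6.49 and 5.40% with Ig genes. Over all genes, the counts called higher and lower in NP B against naive B cells (1068 and 1426 with Ig genes) were 598 and 496 with a mean TPM filter of 10, which left 6594 genes, and 1153 and 860 with quantile normalization; the cause of the latter was not tested. Without Ig genes, PC against naive B cells gave 1473 and 3397, but 2349 and 1814 with median-of-ratios factors, 551 and 7943 with Ig genes and 972 and 1993 with that filter; PC against NP B cells gave 1280 and 2870, but 2023 and 1788, 420 and 7355, and 750 and 1890. NP B against naive B cells without Ig genes gave 1048 and 1340, but 685 and 494 with the filter. Of 166 alternatives for the PC levels of the 7 genes, 17 moved beyond the spread of replicates (the other table, and other offsets for Slpi and Hid1), and of 702 for list counts, 74 moved. Depth limits Slpi in naive B cells and Sdc1 in NP B replicate 1.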
